A study of Mus musculus with 48 samples.

Results

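Galectins are small carbohydrate-binding proteins that recognise galactose-containing glycans on cell surfaces and inside cells. They leave the cell without a signal peptide, cross-link glycoproteins outside it, and gather on lysosomes and other vesicles whose inner glycans have been exposed by damage. Galectin-3 is known as a product of activated macrophages and disease-associated microglia. The galectin-3-binding protein is not itself a galectin but a secreted glycoprotein that galectin-3 binds, and its gene is known to respond to interferon. The genes described here are the 4 galectin genes Lgals1, Lgals3, Lgals8 and Lgals9, and Lgals3bp, which encodes the binding protein. They were taken by symbol from a count table of 35870 genes, and all 5 were found and passed the filter on low counts in both tissues.

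RNA was sequenced from sorted brain microglia and from whole spinal cord, in 6 groups of 8 libraries each. All mice were male, wild type and of strain C57BL/6. In each tissue the young group (3 months) and the old group (23 months) received vehicle. The old repopulated group, also 23 months old, received a Csf1r inhibitor for 5 days, which removes microglia by blocking the receptor they need to survive, and then had 7 days of recovery in which microglia grow back. The inhibitor is not named in the labels, and its time and the recovery are not separated by any group. Microglia were sorted from dissociated brain as Cd11b and Cd45 positive cells, a gate that monocytes, neutrophils and border-associated macrophages can also enter.

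Total counts ran from 18741936 to 34496308 per library in microglia and from 15909868 to 33004806 in cord. The sorted cells carried microglial transcripts at high level: the summed level of 10 markers (P2ry12, Tmem119, Csf1r and others) ran from 36415 to 64145 CPM in microglia libraries and from 223 to 504 CPM in cord. CPM are counts brought to a common library size, here after scaling by the trimmed mean of M-values (TMM), separately in each tissue. The labels do not say whether each library is its own mouse. The p-values below therefore rest on library-to-library spread, which may be technical. Old repopulated cord replicate 6 stood apart from its group, with Lgals1 at 124 CPM against 25.3 to 40.2 CPM in the other 7 libraries. Many of the cord fold changes, list counts, correlations and differences between tissues are given without it as well, but not all. Leaving it out of the lists, the correlations and the comparison of tissues was chosen after seeing the data.

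The 5 genes lie on 4 chromosomes of GRCm38. In the GENCODE M21 annotation Lgals1 spans chr15:78926725-78930465 and Lgals3 chr14:47367751-47386160, both on the plus strand. On the minus strand Lgals3bp spans chr11:118392751-118402092, Lgals9 chr11:78962974-78984946 and Lgals8 chr13:12439415-12464944. All are protein-coding. Lgals8 overlaps the end of Heatr1 on the opposite strand over 875 bases, and because the library kit does not keep the strand, reads from that stretch cannot be assigned to one gene.

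Galectin-9 and the galectin-3-binding protein were the leading transcripts of the family in microglia at every age. On the deposited TPM scale, which corrects for gene length and allows genes to be compared, young microglia held 497 ± 40.0 TPM of Lgals9 and 454 ± 86.9 TPM of Lgals3bp (mean ± SD, n = 8 here and throughout). Those levels ranked 260 and 280 among 20569 genes detected. Lgals8 followed at 59.3 ± 5.80 TPM, Lgals3 at 28.5 ± 8.93 TPM and Lgals1 at 14.0 ± 2.18 TPM. In repopulated microglia the order had changed: Lgals3bp stood at 2287 ± 153 TPM, rank 74, above Lgals9 (517 ± 47.4), Lgals3 (101 ± 25.1), Lgals8 (39.8 ± 4.40) and Lgals1 (34.7 ± 19.5).

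Young cord had another order. Lgals1 and Lgals8 led at 81.9 ± 24.2 and 80.2 ± 15.3 TPM, a difference smaller than the spread of either. Lgals9 (50.2 ± 18.1 TPM) and Lgals3bp (47.5 ± 10.8 TPM) came next, also within their spread, and Lgals3 was lowest at 11.3 ± 5.29 TPM. Lgals9 and Lgals3bp thus had higher TPM in young microglia than in young cord, and Lgals1 had lower TPM.

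**Figure D1:**
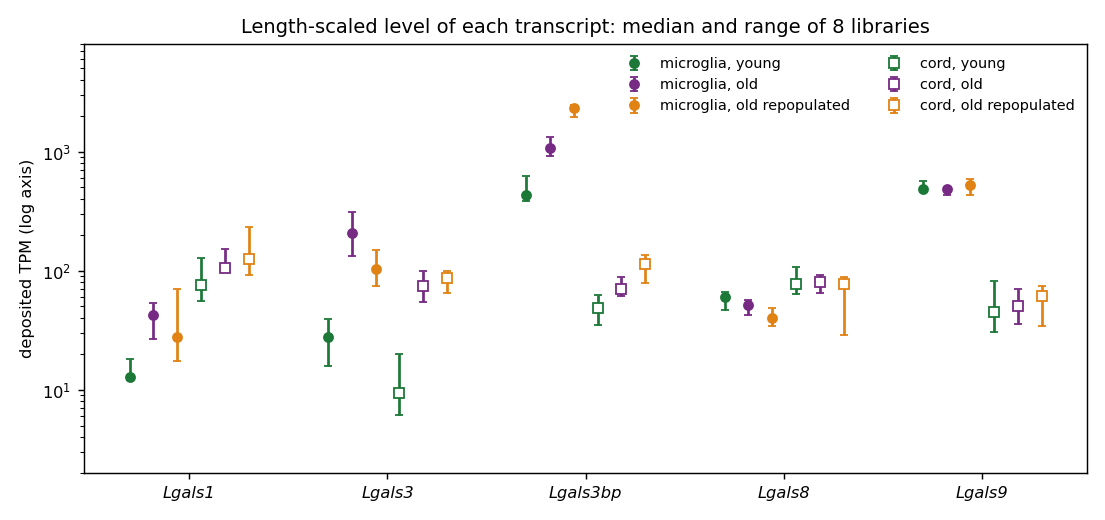
Deposited TPM (log axis) of the 5 genes, with the median of 8 libraries as a point and the lowest to highest library as a bar; filled circles are sorted microglia, open squares whole cord, and colours are the 3 groups. Lgals3bp climbs from young to old to old repopulated in both tissues, Lgals9 stays between 431.7 and 588.7 TPM in all microglia libraries, and Lgals3 is lowest in the young group of each tissue.

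The chimera-type galectin Lgals3, the only galectin that joins a lectin domain to a glycine- and proline-rich tail, rose most with age in microglia. Its level in young microglia was 9.08 CPM in the lowest library, 15.5 CPM in the median and 21.8 CPM in the highest. Old microglia ran from 67.9 through a median of 120 to 206 CPM. The lowest old library was above the highest young one, and Lgals3 was 7.73-fold higher in old than in young (log2 2.95, SE 0.19, adjusted p = 4.6e-13). The repopulated median lay between the other groups, with 53.1, 70.0 and 116 CPM for the lowest, median and highest library. Lgals3 was lower there than in old microglia by 1.71-fold (log2 −0.78, SE 0.18, adjusted p = 0.0025), with overlap of the ranges, and remained 4.51-fold above young (log2 2.17, SE 0.19, adjusted p = 8.1e-11).

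Galectin-1, the small homodimer made from Lgals1, is known to be released by astrocytes and other cells and to dampen microglial activation through Cd45. Its transcript was the least abundant of the 5 in young microglia, with 129 to 177 reads per library. In CPM the young libraries ran from 3.56 through 4.45 to 5.85 and the old ones from 8.65 through 14.6 to 17.0, without overlap. The rise was 2.91-fold (log2 1.54, SE 0.25, adjusted p = 2.4e-05). Repopulated microglia held 6.83 CPM in the lowest, 11.1 CPM in the median and 29.6 CPM in the highest library. Replicates 1 and 5 were the high ones, at 26.7 and 29.6 CPM, and the other 6 stayed between 6.83 and 12.7 CPM. Against old the difference was not called (log2 0.11, SE 0.25, adjusted p = 0.82), while against young Lgals1 was 3.14-fold higher (log2 1.65, SE 0.25, adjusted p = 4.4e-06).

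Lgals3bp rose in both steps, from young to old and again from old to repopulated microglia. Young libraries ran from 307 through a median of 393 to 613 CPM. Old libraries ran from 790 through 969 to 1316 CPM, and repopulated libraries from 2056 through 2575 to 2769 CPM. No library of one group reached into the range of another. The rise with age was 2.502-fold (log2 1.32, SE 0.11, adjusted p = 1.1e-10), that from old to repopulated was 2.499-fold (log2 1.32, SE 0.11, adjusted p = 6.1e-10), and repopulated stood 6.25-fold above young (log2 2.64, SE 0.12, adjusted p = 1.7e-17). The relative spread within a group was 24.3% of the mean in young, 16.3% in old and 8.48% in repopulated microglia.

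Lgals9 encodes galectin-9, a tandem-repeat galectin with 2 lectin domains that binds the receptor Tim-3 (Havcr2). It was not called with age: young libraries ran from 285 through 308 to 405.6 CPM and old ones from 276 through 325 to 355 CPM (log2 −0.02, SE 0.08, adjusted p = 0.93). Repopulated libraries ran from 335 through 414.4 to 495 CPM and overlapped the upper end of the old range. This rise over old was 1.31-fold (log2 0.39, SE 0.08, adjusted p = 0.00065), and that over young 1.30-fold (log2 0.38, SE 0.08, adjusted p = 0.00039). Both calls ended on log2(TPM + 1), at log2 0.14 (adjusted p = 0.081) and 0.05 (adjusted p = 0.46), where the median over all genes in these comparisons was itself −0.21 and −0.28.

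Lgals8, whose tandem-repeat product marks damaged vesicles for autophagy, stayed in a narrow range of CPM. Young libraries ran from 65.6 through 75.2 to 81.1 CPM, old ones from 58.2 through 67.8 to 76.1 CPM and repopulated ones from 53.2 through 64.3 to 74.2 CPM, with overlap throughout. It was lower in repopulated than in young microglia by 1.19-fold (log2 −0.25, SE 0.08, adjusted p = 0.0114). Under 11 other ways of processing this fall ran from log2 −0.57 to −0.21 and was called each time. The all-gene medians there ran from −0.41 to −0.02. The differences of old from young (log2 −0.15, SE 0.08, adjusted p = 0.16) and of repopulated from old (log2 −0.09, SE 0.08, adjusted p = 0.45) did not pass. The first was called by limma-voom (log2 −0.19, adjusted p = 0.031) and on both TPM scales, and the second under 3 settings. These were log2(TPM + 1) (log2 −0.34, adjusted p = 0.0014), log2(TPM + 0.1) (log2 −0.35, adjusted p = 0.0014) and scaling by total counts (log2 −0.26, adjusted p = 0.011), beside all-gene medians of −0.21, −0.27 and −0.21.

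**Figure D2:**
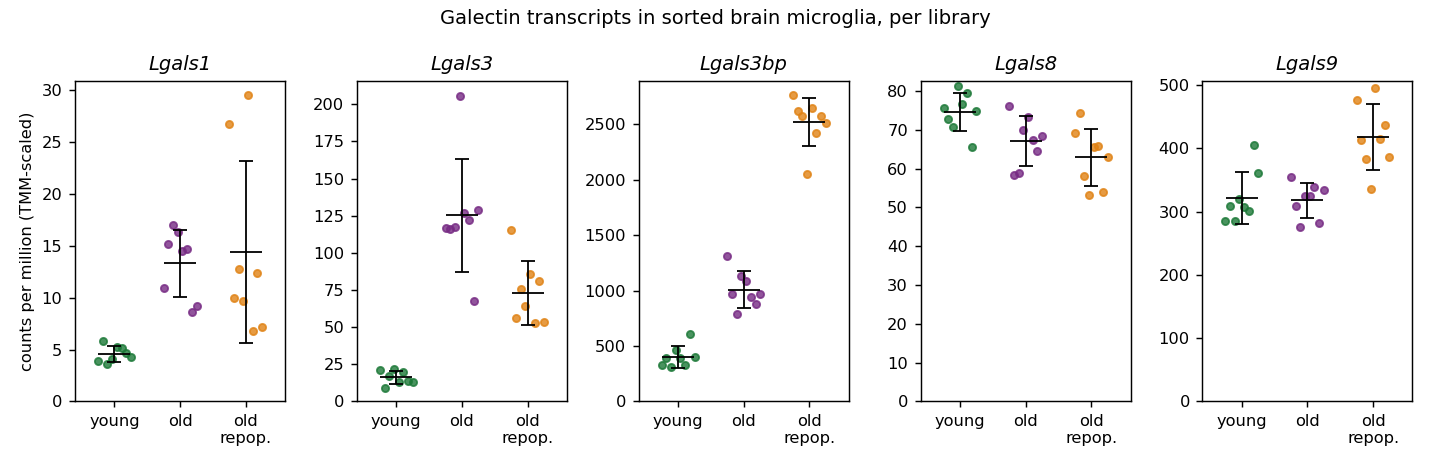
TMM-scaled CPM of each gene in sorted microglia; each point is 1 library, in replicate order within a group, and the black bar is the mean ± SD of 8 libraries. Lgals3bp separates all 3 groups, Lgals3 is highest in old (125 ± 37.8) and intermediate in repopulated microglia (73.1 ± 21.4), and the repopulated spread of Lgals1 comes from 2 libraries above 26 CPM.

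In counts, 3 of the 5 genes rose from young to old microglia and none fell, where 11% of all 14382 genes tested were called higher and 10.7% lower. Ranges did not overlap for the same 3 genes, against 7.16% of all genes. From old to repopulated 2 rose and 1 fell, with 9.05% of all genes called higher and 7.2% lower, and only Lgals3bp had groups that did not overlap (3.06% of all genes). Against young, repopulated microglia had 4 rises and 1 fall, with 16.1% and 16.5% of all genes called in these directions, and 3 of the 5 did not overlap (13.1% of all genes). The last 2 comparisons share the repopulated libraries and the first 2 share the old ones, so their counts are not independent. The split of all genes depended on scaling. From old to repopulated 1301 were called higher and 1035 lower, against 495 and 4284 on log2(TPM + 1) and 592 and 2779 with total-count scaling. Against young, repopulated microglia had 2321 higher and 2377 lower, against 1237 and 6141 on log2(TPM + 1) and 1740 and 3735 with total-count scaling. With age the counts were 1587 and 1541, against 1709 and 1099 with DESeq2 size factors and 1355 and 2073 on log2(TPM + 0.1).

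Monocyte and neutrophil markers in the sort moved alongside Lgals3, and border-associated macrophage markers did so only in part. All 9 monocyte markers (Ly6c2, Ccr2, Chil3 and others) rose with age in the sorted cells, and 5 fell from old to repopulated. Their summed level ran from 89.6 to 253 CPM in young, 537 to 1354 CPM in old and 269 to 658 CPM in repopulated libraries, the same order as Lgals3. All 9 neutrophil markers rose with age and fell from old to repopulated, with sums of 221 to 1018, 2042 to 8862 and 802 to 3561 CPM. Of 8 border-associated macrophage markers 4 rose with age, F13a1 (log2 1.33), Cbr2 (0.95), Mrc1 (0.66) and Cd209f (1.62), and Stab1 fell (−0.34), with a median of 0.77. In repopulated microglia 7 of 8 were below old, all but Stab1 (−0.01), and all 8 were below young by the test. Their sums ran from 1066 to 1654, 947 to 1686 and 755 to 1053 CPM in the 3 groups, but Stab1 alone held means of 1045, 825 and 818 CPM. Without it, a sum chosen after seeing the data, the other 7 ran from 154 to 390 CPM in young, 294 to 645 CPM in old and 70.0 to 146 CPM in repopulated libraries. All 10 microglia markers were lower in old than in young. None of the monocyte, neutrophil or border-associated macrophage markers was at 0 in any group.

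Within groups the same relation was seen for Lgals3 and monocyte transcripts. Over the 24 microglia libraries, deviations of log2 Lgals3 from its group mean had a Pearson correlation of 0.794 with those of the monocyte sum, 0.642 with the lymphocyte sum, 0.412 with the neutrophil sum, 0.404 with the dendritic cell sum and −0.601 with microglia markers. With border-associated macrophage markers it was −0.032, and 0.122 without Stab1. Lymphocyte and dendritic cell sums were low, at most 71.8 and 89.4 CPM in any library. For Lgals1 the monocyte value was 0.324, and for Lgals3bp it was −0.084. These are descriptions over libraries that share depth and sort. Lgals3bp rose from old to repopulated while the median sums of these other cells were lower. The part of these other cells in the Lgals3, Lgals1 and Lgals3bp results was not tested.

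**Figure D3:**
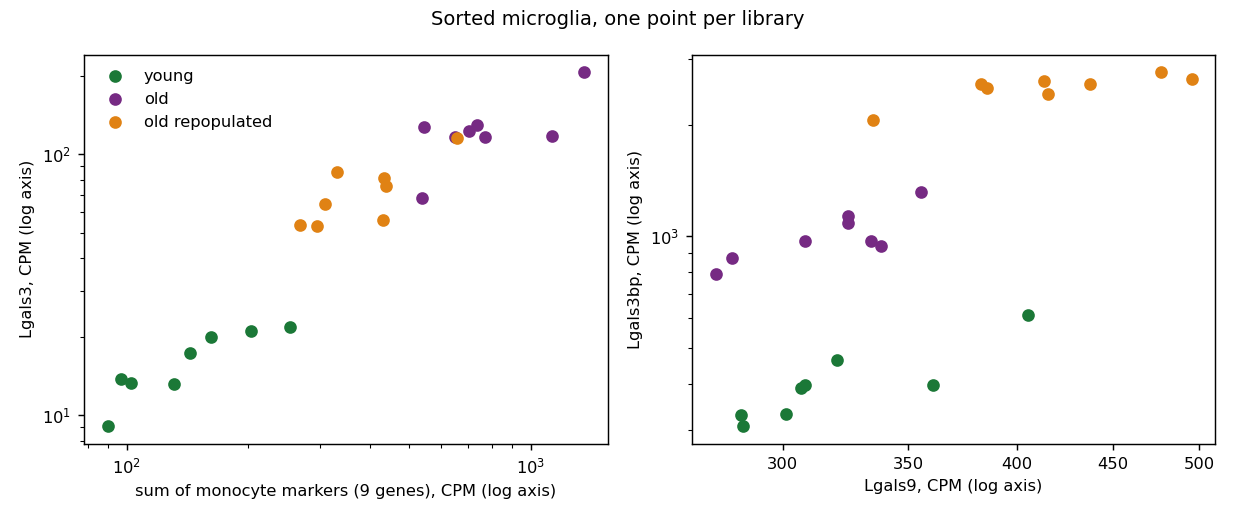
Microglia libraries as points, coloured by group, with CPM on log axes. Left, Lgals3 against the sum of 9 monocyte markers, where deviations within groups run together (correlation 0.794); right, Lgals3bp against Lgals9, where deviations within groups run together (correlation 0.785) and the 3 groups form separate bands.

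Lgals3bp and Lgals9 were the pair whose levels ran together most closely within groups of microglia, with a correlation of deviations of 0.785 over 24 libraries. All other pairs of the 5 genes there lay between 0.048 and 0.47. Since both products are known from interferon responses, the 250 bases before the RefSeq start site of each are shown (GRCm38.p6, minus strand, written 5′ to 3′), with matches to the core of the interferon-stimulated response element (GAAA, any 2 bases, GAAA) in capitals on either strand. The Lgals3bp window is chr11:118401960-118402209 and the Lgals9 window chr11:78984925-78985174.
Lgals3bp: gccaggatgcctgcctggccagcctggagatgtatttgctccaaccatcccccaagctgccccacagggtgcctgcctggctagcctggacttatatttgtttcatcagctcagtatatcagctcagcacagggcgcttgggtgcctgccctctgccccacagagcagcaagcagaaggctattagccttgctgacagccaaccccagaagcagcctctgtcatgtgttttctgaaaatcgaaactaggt
Lgals9: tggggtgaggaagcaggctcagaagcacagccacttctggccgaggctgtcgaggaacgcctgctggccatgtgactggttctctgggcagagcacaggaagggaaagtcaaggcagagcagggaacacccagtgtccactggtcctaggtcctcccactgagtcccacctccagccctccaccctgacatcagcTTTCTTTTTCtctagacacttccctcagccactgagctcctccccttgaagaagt

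The Lgals9 window holds 1 such match, TTTCTTTTTC, from 55 to 46 bases before the start site, and a second, TTTCTGTTTC, lies from base 16 to base 25 after it. Both are the motif on the opposite strand. Of 32851 promoter windows of 300 bases, 3.44% hold the motif. The 300-base windows of Lgals3bp, Lgals3 and Lgals8 have no match to these letters, and none of the 4 windows matches the gamma-activated site TTCNNNGAA (8.3% of windows) or the E-box CACGTG (7.15%). A match is a description of sequence, and no match says only that these letters are not in the window.

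In whole cord the age rise of Lgals3 was close in size to that in microglia. Young cord held 3.07 CPM in the lowest, 4.58 CPM in the median and 9.99 CPM in the highest library. Old cord ran from 27.4 through 35.9 to 47.9 CPM and repopulated cord from 31.0 through 43.4 to 80.3 CPM. Both older groups lay wholly above young and overlapped each other. Lgals3 was 6.84-fold higher in old than in young (log2 2.77, SE 0.24, adjusted p = 7.4e-09) and 8.13-fold higher in repopulated than in young (log2 3.02, SE 0.24, adjusted p = 1.3e-09). Between repopulated and old it was not called (log2 0.25, SE 0.22, adjusted p = 0.70, and log2 0.09 without replicate 6). Without that library the rises over young were log2 2.77 for old and 2.86 for repopulated cord, both still called.

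Lgals3bp rose in the same 2 steps in cord, from a lower level. Young libraries ran from 27.7 through 36.2 to 47.5 CPM, old ones from 45.1 through 51.3 to 65.9 CPM and repopulated ones from 77.2 through 89.2 to 114 CPM. The old range overlapped the young one at its lower end, and the repopulated range lay above both. On deposited TPM, repopulated replicate 6 (78.2 TPM) fell inside the old range of 61.2 to 89.0 TPM. The other repopulated libraries ran from 104 to 136 TPM, above it. Lgals3bp was 1.45-fold higher in old than in young (log2 0.54, SE 0.12, adjusted p = 0.0034), 1.74-fold higher in repopulated than in old (log2 0.80, SE 0.12, adjusted p = 0.0030) and 2.53-fold higher in repopulated than in young (log2 1.34, SE 0.12, adjusted p = 8.7e-09). Without replicate 6 these were log2 0.54, 0.75 (adjusted p = 0.0042) and 1.29, all still called. By edgeR only 27 of 18271 cord genes (0.148%) were called between repopulated and old, all higher, and Lgals3bp was 1 of them. On CPM, groups without overlap were seen there for 9 genes (0.0493%), again with Lgals3bp.

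The cord level of Lgals1 depended on 1 library. Young cord ran from 15.9 through 21.8 to 36.3 CPM, old cord from 26.2 through 29.4 to 41.5 CPM and repopulated cord from 25.3 through 34.1 to 124 CPM, all overlapping. Against young, the repopulated group was called higher (1.93-fold, log2 0.95, SE 0.25, adjusted p = 0.016). Without replicate 6 the call held at a smaller size (log2 0.53, adjusted p = 0.017), with a mean of 33.3 ± 4.76 CPM over 7 libraries in place of 44.6 ± 32.4. It ended when only these 2 groups were fitted (log2 0.95, adjusted p = 0.058). Old against young was not called (log2 0.45, SE 0.25, adjusted p = 0.44), yet it passed at the same size once replicate 6 was left out of the fit (log2 0.45, adjusted p = 0.045) and by limma-voom (log2 0.55, adjusted p = 0.0022). Repopulated against old went from log2 0.50 (adjusted p = 0.68) to 0.08 without that library.

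Neither tandem-repeat galectin passed the test in cord. Lgals9 ran from 17.3 through 24.2 to 45.9 CPM in young, from 19.7 through 27.8 to 38.2 CPM in old and from 26.7 through 34.9 to 41.9 CPM in repopulated cord. Its difference of repopulated from young (log2 0.29, SE 0.17, adjusted p = 0.28) was called only by limma-voom (log2 0.43, adjusted p = 0.038). Lgals8 held medians of 82.97, 87.06 and 82.88 CPM in the 3 groups, with log2 differences between −0.11 and −0.04. Neither passed without replicate 6, where repopulated against young was log2 0.28 (adjusted p = 0.34) for Lgals9 and −0.05 (adjusted p = 0.78) for Lgals8.

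**Figure D4:**
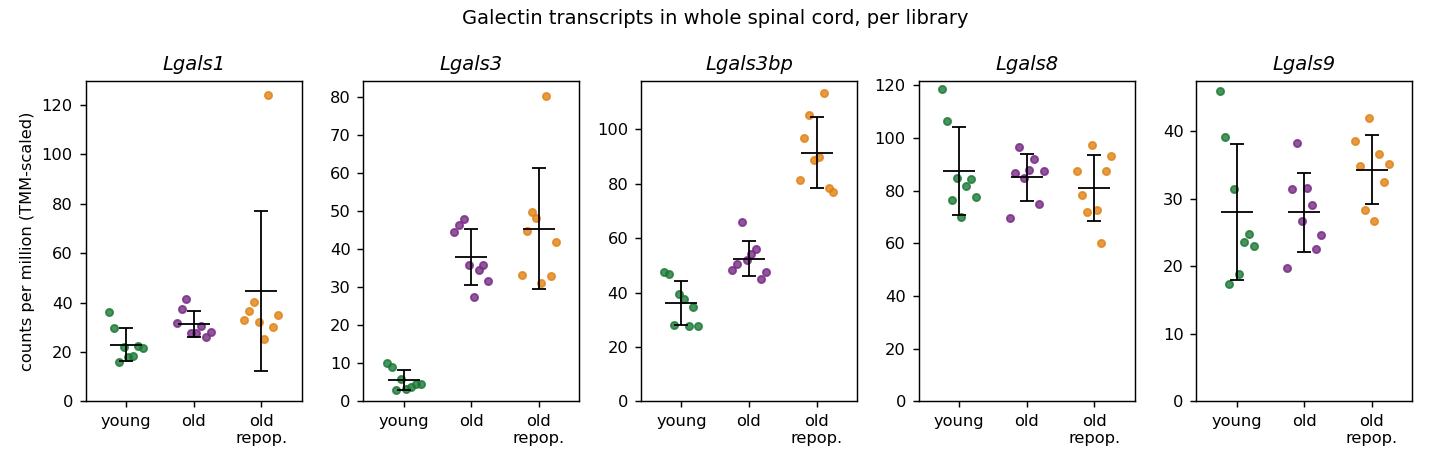
TMM-scaled CPM of each gene in whole spinal cord, drawn as for microglia: points are libraries in replicate order, bars the mean ± SD of 8. Lgals3 is near the floor of the axis in young cord (5.56 ± 2.62), Lgals3bp is highest in repopulated cord (91.4 ± 13.1), and the single high point of Lgals1 and of Lgals3 in the repopulated group is replicate 6.

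Of the 5 genes, 2 rose with age in cord and none fell, where 4.88% of all 18271 genes were called higher and 1.26% lower, and only Lgals3 did not overlap (3.06% of all genes). Without repopulated replicate 6 in the fit 3 rose, Lgals1 being the added one, while 7.76% of 18401 genes were called higher and 3.7% lower (1428 and 681, against 892 and 231 with it). Between repopulated and old 1 rose and none fell, with 0.148% of all genes called higher and 0% lower (27 and 0). For the 5 genes limma-voom and DESeq2 gave the same count of 1. Over all genes limma-voom called 52 higher and 1 lower, and the DESeq2 test 62 and 4. Between repopulated and young 3 rose and none fell, with 7.28% and 2.78% of all genes called, and Lgals3 and Lgals3bp did not overlap (3.61% of all genes). Without replicate 6 this comparison also gave 3 rises, with 1694 genes higher and 867 lower in place of 1331 and 508, while total-count scaling gave 1522 and 276. With age, 710 and 82 were called on log2(TPM + 0.1). The summed microglia markers of cord also differed, from 223 to 312 CPM in young, 332 to 423.8 CPM in old and 373 to 504 CPM in repopulated libraries, and 6 of the 10 rose with age. In intact tissue more cells of a type and more transcript per cell cannot be told apart.

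Cord libraries varied in a way that Lgals8 and Lgals9 followed. Over 24 cord libraries their deviations from group means had correlations of 0.887 and 0.847 with those of 6 motor and cholinergic neuron markers (Chat, Isl1, Prph and others) and −0.905 and −0.909 with 6 astrocyte markers. Lgals8 also ran against oligodendrocyte (−0.931) and microglia markers (−0.921), and Lgals9 did so less closely (−0.603 and −0.646). Young cord replicates 1 and 2 held the highest neuron sums, 901 and 716 CPM, and the highest young levels of Lgals8 (119 and 106 CPM) and Lgals9 (45.9 and 39.2 CPM). Without repopulated replicate 6 the neuron values were 0.947 and 0.867 and the astrocyte values −0.978 and −0.92. Lgals8 then had −0.964 with oligodendrocyte and −0.894 with microglia markers, and Lgals9 had −0.91 and −0.714. For Lgals1, Lgals3 and Lgals3bp the neuron values without it were 0.537, 0.446 and 0.334, against 0.221, 0.336 and 0.249 over all 24 libraries. Their astrocyte values were −0.725, −0.672 and −0.57, against −0.367, −0.562 and −0.492. Their oligodendrocyte values were −0.718, −0.679 and −0.545, against 0.253, −0.127 and −0.137. The part of this variation in the cord results was not tested. In microglia those neuron markers summed to at most 1.70 CPM, and Mnx1 was at 0 in every group.

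Whether the changes differed between tissues was tested as an interaction over all 48 libraries, scaled together. The labels do not say whether brain and cord came from the same mice, and the errors treat all libraries as independent. The age rise of Lgals3bp was larger in microglia than in cord by log2 0.63 (SE 0.16, adjusted p = 0.0029), and its rise from old to repopulated by log2 0.49 (SE 0.16, adjusted p = 0.034). The latter was 0.38 (adjusted p = 0.082) under total-count scaling and 0.60 (adjusted p = 0.013) without cord old repopulated replicate 6. The age value of Lgals3bp depended on the joint scaling: it was 0.75 to 0.79 with DESeq2 size factors, total-count scaling or no filter, and 0.78 without cord old repopulated replicate 6, called each time. For Lgals3 the age change did not differ detectably (log2 0.01, SE 0.34, adjusted p = 1, and 0.14 to 0.17 under those 4 alternatives, none called). Its repopulated change did: it was log2 1.07 lower in microglia than in cord (−1.07, SE 0.31, adjusted p = 0.021, and −0.83 with adjusted p = 0.045 without replicate 6). For Lgals1 the age difference between tissues was log2 0.94 (SE 0.37, adjusted p = 0.063), and it passed with DESeq2 size factors (1.09, adjusted p = 0.038) and total-count scaling (1.09, adjusted p = 0.032) and without replicate 6 (1.08, adjusted p = 0.010). The Lgals8 age difference (−0.28, adjusted p = 0.13) was −0.15 to −0.12 under those 4 alternatives. Of all 19110 genes 20.5% were called for the age difference, against 14.1% with DESeq2 size factors and 13.6% with total-count scaling. For the repopulated difference 11% were called, against 11.8% and 17.3%. The 2 tissues were extracted by different protocols and come from brain and cord, so cell purity, region and protocol cannot be told apart here.

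**Figure D5:**
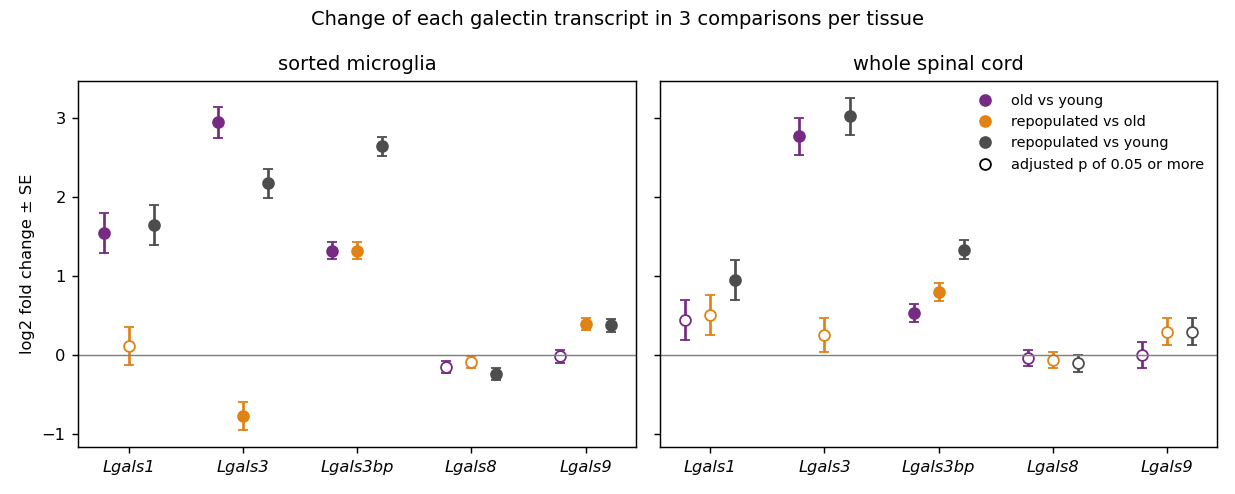
Log2 fold change ± SE of each gene in 3 comparisons, sorted microglia on the left and whole cord on the right; filled points have an adjusted p under 0.05 and open points do not. Lgals3 is called lower from old to repopulated in the microglia panel (−0.78) and not called in cord (0.25), and Lgals3bp is above 0 in all 6 comparisons.

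Transcripts whose levels were most like each gene over the 24 libraries of a tissue were then listed, by Pearson correlation of log2 CPM, with the correlation of deviations from group means as the second value. For Lgals3 in microglia they were the membrane-binding annexin Anxa2 (0.976 and 0.835), the Src-family kinase Fgr (0.972 and 0.663) and the chemokine receptor Cxcr4 (0.969 and 0.717). For Lgals3bp they were the MHC class I heavy chain H2-D1 (0.988 and 0.784), the syndecan Sdc3 (0.988 and 0.747) and the class I light chain B2m (0.985 and 0.807). Lgals9 was most like 3 lysosomal enzyme genes, Ctsd (0.926 and 0.815), Hexa (0.919 and 0.799) and Ctsa (0.917 and 0.799). Lgals1 was most like the intermediate filament gene Vim (0.922 and 0.741), Fxyd5 and Ms4a6c, and Lgals8 had only weaker partners, led by the elongation factor Ell (0.77 and 0.665).

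In cord the lists were others, apart from H2-D1. Among the genes most like Lgals3 were the lysozyme gene Lyz2 (0.975) and Ms4a7 (0.974). Lgals3bp was most like the progranulin gene Grn (0.958), the interferon-induced Oasl2 (0.95) and H2-D1 (0.939). The genes most like Lgals1, namely Tmem176b (0.984 and 0.979), the ferritin gene Ftl1 (0.976 and 0.969) and Crip1, had nearly the same correlation within groups. Without repopulated replicate 6 Tmem176b (0.965 and 0.949) and Ftl1 (0.946 and 0.92) were still the closest, and Crip1 fell to rank 22. Lyz2 and Ms4a7 then ranked 7 and 12 for Lgals3 (0.975 and 0.973), and Grn, Oasl2 and H2-D1 ranked 1, 3 and 5 for Lgals3bp. All these libraries share depth and composition, and the first value of each pair also holds the difference between groups.

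Genes known from the settings in which galectins act were compared by counts, in lists that leave out the 5 genes themselves. Of 18 disease-associated microglia genes 16 rose with age in microglia and none fell (median log2 2.12, against −0.01 over all genes), among them Spp1 (osteopontin, 5.99), Lpl (lipoprotein lipase, 3.10), the lectin receptor Clec7a (3.12) and the receptor kinase Axl (2.90). Lgals3, at 2.95, lay within this range. From old to repopulated 4 of the 18 rose and 3 fell (median 0.03), where 9.05% of all genes were called higher and 7.2% lower. The members moved apart: Axl rose by log2 1.24 and Ccl6 fell by 0.89 and Lpl by 0.64, beside −0.78 for Lgals3. In cord 12 of the 18 rose with age (median 0.63, and 14 without repopulated replicate 6), among them Gpnmb (4.76) and Itgax (4.28), and between repopulated and old none of the 18 passed edgeR's adjusted test, with 6 at an unadjusted p under 0.05. Over all genes 11% were called higher with age in microglia and 4.88% in cord (7.76% without that library). Between repopulated and old cord the share was 0.148%.

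Interferon response genes moved in the direction of Lgals3bp. All 17 tested rose with age in microglia (median 1.57) and 16 rose again from old to repopulated (median 0.93), among them Ifi27l2a (log2 2.16), Irf7 (1.41) and Ifi204 (1.21), against 1.32 for Lgals3bp. In cord 5 of 17 rose with age (median 0.34) and 8 rose from old to repopulated (median 0.87), among them Irf7 (1.65), Oasl2 (0.95), Ifi27l2a (1.67) and Usp18 (1.10). These 8 were among the 27 genes called there. Without replicate 6 the counts were 8 with age (median 0.34) and 10 from old to repopulated (median 0.75). Over all genes 11% were called higher with age and 9.05% from old to repopulated in microglia. In cord these shares were 4.88% and 0.148%, and 7.76% and 0.168% without replicate 6. The median over all genes was between −0.04 and 0.01 in the 4 comparisons with all libraries.

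Glycoproteins that galectins bind changed in part. In microglia 5 of 14 tested rose with age (median 0.11): the hyaluronan receptor Cd44 (5.90-fold, adjusted p = 1.4e-10), the adhesion molecule Alcam (4.81-fold), the sialomucin Spn (4.34-fold), Cd45 (Ptprc, 1.43-fold) and the lysosomal membrane protein Lamp1 (1.20-fold). The phagocytic receptor kinase Mertk was the 1 that fell (1.35-fold). From old to repopulated Lamp1, Nrp1, Itgb1, Ptprc and Lamp2 rose, each by 1.18 to 1.30-fold, and Mertk fell again, by 1.17-fold. In cord 6 of 14 rose with age, among them Trem2 (5.46-fold), Havcr2 (2.54-fold) and Ptprc (2.35-fold), and between repopulated and old none passed edgeR's adjusted test, with 1 at an unadjusted p under 0.05. All-gene shares beside these counts were 11% higher and 10.7% lower with age and 9.05% and 7.2% from old to repopulated in microglia, and 4.88% higher with age in cord. The counts of glycoproteins that rose exceed those shares, and the single falls are near them. Between repopulated and old cord 0.148% of all genes were called higher, so a count of none is near that share too. Monocytes are also known to carry Cd44 and Spn, and their marker sums are those given above.

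Enzymes that build the glycans bound by galectins were counted in the same way. Of 10 tested in microglia 1 rose and 2 fell with age (median −0.16): B3gnt2, which extends lactosamine chains, was 1.26-fold higher, and the branching enzymes Mgat1 and Mgat4a were each 1.24-fold lower. From old to repopulated the mannosidase Man2a1 rose 1.84-fold (adjusted p = 1.2e-06) and Mgat4a rose 1.17-fold. Against young, repopulated microglia had 1 rise, again Man2a1 (2.18-fold, adjusted p = 2.1e-09), and 3 falls, Mgat1 (1.36-fold), Gcnt1 (1.34-fold) and B4galt1 (1.13-fold), where 16.1% of all genes were called higher and 16.5% lower. With age 11% of all genes were called higher and 10.7% lower, and from old to repopulated 9.05% and 7.2%. Each of these microglia counts differs from the share over all genes by less than 2 of the 10 enzymes. In cord only Gcnt1, which makes branched O-glycans, rose with age (2.07-fold, 6.25 against 3.03 CPM), where 4.88% of all genes were called higher. None of the 10 passed edgeR's adjusted test between repopulated and old, nor had an unadjusted p under 0.05. In that comparison 0.148% of all genes were called higher and 0% lower. Both cord counts are near those shares.

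Genes that act with galectins at damaged lysosomes showed no shared direction. With age 2 of 11 rose in microglia, Optn (2.18-fold) and Becn1 (1.31-fold), and 3 fell, Nbr1 (1.35-fold), Ulk1 (1.34-fold) and Tfeb (1.27-fold), around a median of −0.10, where 11% of all genes were called higher and 10.7% lower. From old to repopulated Becn1 rose 1.25-fold, and Sqstm1 fell 1.19-fold and Trim16 2.95-fold, the latter at 3.37 and 1.14 CPM, with 9.05% and 7.2% of all genes called. In cord the 1 gene of 12 that passed with age was Calcoco2, 3.82-fold lower at 0.388 against 1.49 CPM, where 1.26% of all genes were called lower.

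The remaining galectin genes gave 1 call. Of the 6 present in the table (Lgals2, Lgals4, Lgals7, Lgals12, Lgalsl and Grifin), only Lgals4 and Lgalsl passed the low-count filter in microglia, and neither passed in any of the 3 comparisons. Lgals7 and Grifin had no read in any microglia library. In cord Lgalsl, a galectin-like gene without sugar-binding activity, held 57.5 ± 3.07 CPM in young, 57.4 ± 3.25 CPM in old and 54.9 ± 4.89 CPM in repopulated libraries, and Lgals4 held 9.58 ± 0.77 CPM in young and 11.4 ± 2.12 CPM in repopulated libraries, neither called. Grifin, a lens galectin relative, passed between repopulated and young cord (adjusted p = 0.042) at 0.569 and 0.281 CPM, and that call ended without replicate 6.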

How the data were processed

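The authors deposited counts as whole numbers of reads per gene and library, per the file headers under Entrez identifiers, and TPM values, which equal counts over gene length rescaled per library (within 0.01); their deposited FPKM table was not used. Per the submitters' processing notes, STAR 2.5.2b and GRCm38.p5 were used; the counter is not given in the sources used here. Counts were tested with edgeR 4.0.16 (quasi-likelihood, TMM, filterByExpr with minimum count 10 and minimum total 15) over the 24 libraries of a tissue, with Benjamini-Hochberg adjustment over all genes and calls under 0.05. Log2 CPM for correlations added 0.1. Alternatives used DESeq2 1.42.0, limma 3.58.1 and the settings below. All 168 within-group library pairs differed beyond sampling noise (chi-square per gene at least 3.4). Lists were described by counts; up to 4 genes per list with the smallest adjusted p were named, plus any that make up a count of 5 or fewer, chosen after their values were seen. Likeness was ranked among genes of at least 5 CPM. Some genes that these rules name are not reported here. Members and lists were chosen with earlier results of these data known. Promoter sequences are from RefSeq (GRCm38.p6), matched by symbol for 4 of 5 genes. The fit was tested on simulated data.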

Additional observations from a re-analysis of the deposited data

Results flagged for a closer look

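In old repopulated cord replicate 6, Lgals1 stood at 124 CPM against 25.3 to 40.2 CPM in the other 7 libraries, and Lgals3 at 80.3 CPM against 31.0 to 49.9 CPM. On deposited TPM, Lgals1 in this library also stood apart, at 232 against 92.1 to 140 TPM. Lgals3 did not: its 85.3 TPM lay within the 64.3 to 99.2 TPM of the others, so that flag holds on CPM only. In old microglia replicate 4, Lgals3 stood at 206 CPM against 67.9 to 129 CPM in the other 7. That library also had the highest monocyte marker sum, 1354 CPM. Each gap in CPM to the next library exceeded Dixon's 95% limit for 8 values, as a share of the group's range. Chance gives about 1 such flag in 20 independent groups of normally spread values, and 3 were found in 30. The 30 reuse the same libraries for each gene, and both cord flags come from 1 library. The 3 flags therefore cannot be set against that rate.

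Changes that differed between microglia and cord by the interaction test were the age rise of Lgals3bp (log2 0.63 larger in microglia), its rise from old to repopulated (0.49 larger) and the change of Lgals3 from old to repopulated (−1.07, lower in microglia).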

How the results depend on the processing

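Over 11 processing alternatives per comparison and 16 left-out libraries, Lgals3 kept its calls in every comparison in which it was called, and so did Lgals3bp within each tissue, with Lgals3bp between log2 1.08 and 1.37 for repopulated against old microglia under the alternatives (1.29 to 1.40 over left-out libraries) and Lgals3 between −1.02 and −0.76 (−0.90 to −0.62). No call of the 5 genes ended when any 1 library was left out of the groups compared. Of 360 values for the 5 genes under processing alternatives, differences between tissues included, 343 counted as unchanged. A called value had to stay called in the same direction. A value not called in the main fit counted as unchanged if it stayed uncalled or if its sign changed. Lgals1 for repopulated against old microglia, for one, ran from log2 −0.34 to 0.13. The larger rise of Lgals3bp in microglia than in cord from old to repopulated was among the values that did not count as unchanged. Between old and young microglia 1 gene (Lgals8) fell by limma-voom and on both TPM scales, in place of 0. Between repopulated and old microglia 2 genes fell (Lgals3 and Lgals8) under total-count scaling and on both TPM scales in place of 1, and 1 rose (Lgals3bp) on both TPM scales in place of 2; the cause was not tested. With the replicate number as a block, a paired fit, no call of the 5 genes changed (Lgals3 at log2 2.97 for old against young microglia, Lgals1 at 0.81 with adjusted p = 0.046 for repopulated against young cord), and same-numbered libraries did not deviate together as a rule (correlations −0.3 to 0.175 in microglia, 5 of 24 pairs over 0.1, and −0.717 to 0.553 in cord, 9 of 24). Without old microglia replicates 2 and 7 no call in microglia changed. Depth limits Lgals1 in young microglia, at 129 to 177 reads per library.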
